A study of Homo sapiens with 15 samples.

Results

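The genes described here are 50 interferon-stimulated antiviral genes, taken by symbol from the deposited tables, out of 16109 genes listed in any of the 3 tables. A gene is listed in a table only if it reached a CPM above 1 in at least 2 of its 6 libraries, where CPM is a gene's share of the library's counted reads, 10000 CPM being 1% of them. Of the 50 members 42 are listed for PC3, 38 for P493-6 with MYCi975 and 47 for P493-6 with tetracycline, and 31 are listed in all tables. RIG-I appears under its older symbol DDX58.

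The RNA came from 2 established human lines in 5 groups of 3 libraries, treated for 24 h. PC3 cells, from prostate cancer, were given DMSO or 8 µM of MYCi975, a compound designed against the oncoprotein MYC. P493-6 cells are B cells with a MYC transgene that tetracycline switches off, and the labels call them a Burkitt lymphoma line overexpressing c-MYC. They were given DMSO, MYCi975 at 6 µM, or tetracycline at 0.1 µg/ml. Tetracycline was given in water and the controls were given DMSO, so the drug, its vehicle and the loss of MYC cannot be told apart in that comparison. Each tissue is represented by 1 line. Whether replicate libraries derive from separate cultures is not stated, so p-values cover only library-to-library spread, possibly technical. Depth ran from 8162582 to 15926008 reads per library. MYC itself was at 4692 to 4791 CPM in P493-6 controls, 145 to 152 CPM with tetracycline and 5084 to 5138 CPM with MYCi975, and in PC3 at 300 to 309 CPM in controls and 359 to 386 CPM with MYCi975. The B cell markers MS4A1, CD79A, CD79B, PAX5 and CD22 were all listed in P493-6 and none of them in PC3, where 5 of 6 epithelial markers were listed and the prostate marker KLK3 was not.

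Interferons are secreted proteins that warn cells of a virus. They bind receptors at the cell surface, the receptor-bound kinases JAK1 and TYK2 activate transcription factors, among them STAT2, which joins IRF9 in a complex that binds a DNA element called the ISRE in front of its target genes. The targets include sensors of viral RNA, enzymes that degrade RNA or stop translation, membrane proteins that block virus entry or exit, and the ubiquitin-like protein ISG15. Some IRF factors can also bind these elements without interferon, so an interferon-stimulated gene can change with no interferon present.

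The promoter windows of RefSeq (build GRCh38.p14, 250 bases before to 50 bases after each start site) were searched on both strands for an ISRE core, GAAA-NN-GAAA with N for any base. It was found in 29 of the 40 members that have a window (72.5%), against 4.38% of the 27305 genes with windows of the same length. A core of the GAS element of interferon gamma responses, TTCNNNGAA, was found in 11 of 40 members (27.5%) against 9.38% of genes, and the E-box CACGTG, which MYC binds, in 4 of 40 members (10%) against 8.77% of genes. In 5 members an ISRE core match shared bases with one of these other motifs. The members without a window are DHX58, ZNFX1, OAS2, OASL, IFIT2, IFITM2, MX2, USP18, TRIM22 and SLFN5. The 6 stretches below run from 200 bases before to 30 bases after the start site, with ISRE core matches in capitals. They are shown because IFI6, MX1, OAS3 and DDX60 were among the members with the largest changes with tetracycline, and because OAS3 and IFIT1 went the opposite way from DDX60 and IFIT3 in PC3 although all of them hold the core.
IFI6 (chr1:27672163-27672392, minus strand): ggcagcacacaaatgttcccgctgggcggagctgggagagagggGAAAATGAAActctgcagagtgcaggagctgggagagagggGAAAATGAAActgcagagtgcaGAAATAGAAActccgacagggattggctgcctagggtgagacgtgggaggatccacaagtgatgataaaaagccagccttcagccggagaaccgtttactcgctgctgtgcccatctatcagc
MX1 (chr21:41420358-41420587, plus strand): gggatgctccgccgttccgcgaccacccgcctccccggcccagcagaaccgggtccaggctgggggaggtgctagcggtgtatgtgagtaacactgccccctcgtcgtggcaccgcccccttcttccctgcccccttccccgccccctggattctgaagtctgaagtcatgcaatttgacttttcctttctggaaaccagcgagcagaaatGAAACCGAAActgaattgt
OAS3 (chr12:112938274-112938503, plus strand): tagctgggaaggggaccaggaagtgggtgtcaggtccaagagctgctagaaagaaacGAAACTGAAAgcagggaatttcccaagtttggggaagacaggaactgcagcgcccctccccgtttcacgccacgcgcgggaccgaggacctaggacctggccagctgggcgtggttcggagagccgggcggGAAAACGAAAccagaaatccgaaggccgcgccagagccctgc
DDX60 (chr4:168318723-168318952, minus strand): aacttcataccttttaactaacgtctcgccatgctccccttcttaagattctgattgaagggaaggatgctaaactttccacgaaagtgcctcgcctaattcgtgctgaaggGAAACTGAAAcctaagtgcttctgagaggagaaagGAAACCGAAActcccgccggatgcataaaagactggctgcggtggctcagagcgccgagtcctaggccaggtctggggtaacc
IFIT1 (chr10:89392423-89392652, plus strand): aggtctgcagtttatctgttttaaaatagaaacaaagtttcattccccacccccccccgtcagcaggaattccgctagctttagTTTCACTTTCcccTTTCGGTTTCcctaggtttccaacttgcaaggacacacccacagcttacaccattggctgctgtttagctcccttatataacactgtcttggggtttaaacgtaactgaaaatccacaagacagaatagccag
IFIT3 (chr10:89327797-89328026, plus strand): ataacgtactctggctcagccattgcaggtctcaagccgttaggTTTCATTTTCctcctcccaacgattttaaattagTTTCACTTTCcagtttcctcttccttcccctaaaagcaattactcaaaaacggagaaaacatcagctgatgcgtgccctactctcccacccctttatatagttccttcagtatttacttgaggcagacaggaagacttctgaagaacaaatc
IFI6 has 3 matches, which begin 156, 115 and 93 bases before the start site. OAS3, DDX60, IFIT1 and IFIT3 have 2 each, and those of IFIT1 and IFIT3 lie on the other strand, where the core reads TTTC-NN-TTTC. In MX1 the match begins 11 bases after the start site of this window, and 2 of its 3 listed windows hold one. A match is a run of letters in this window and not a measured binding site.

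**Figure D1:**
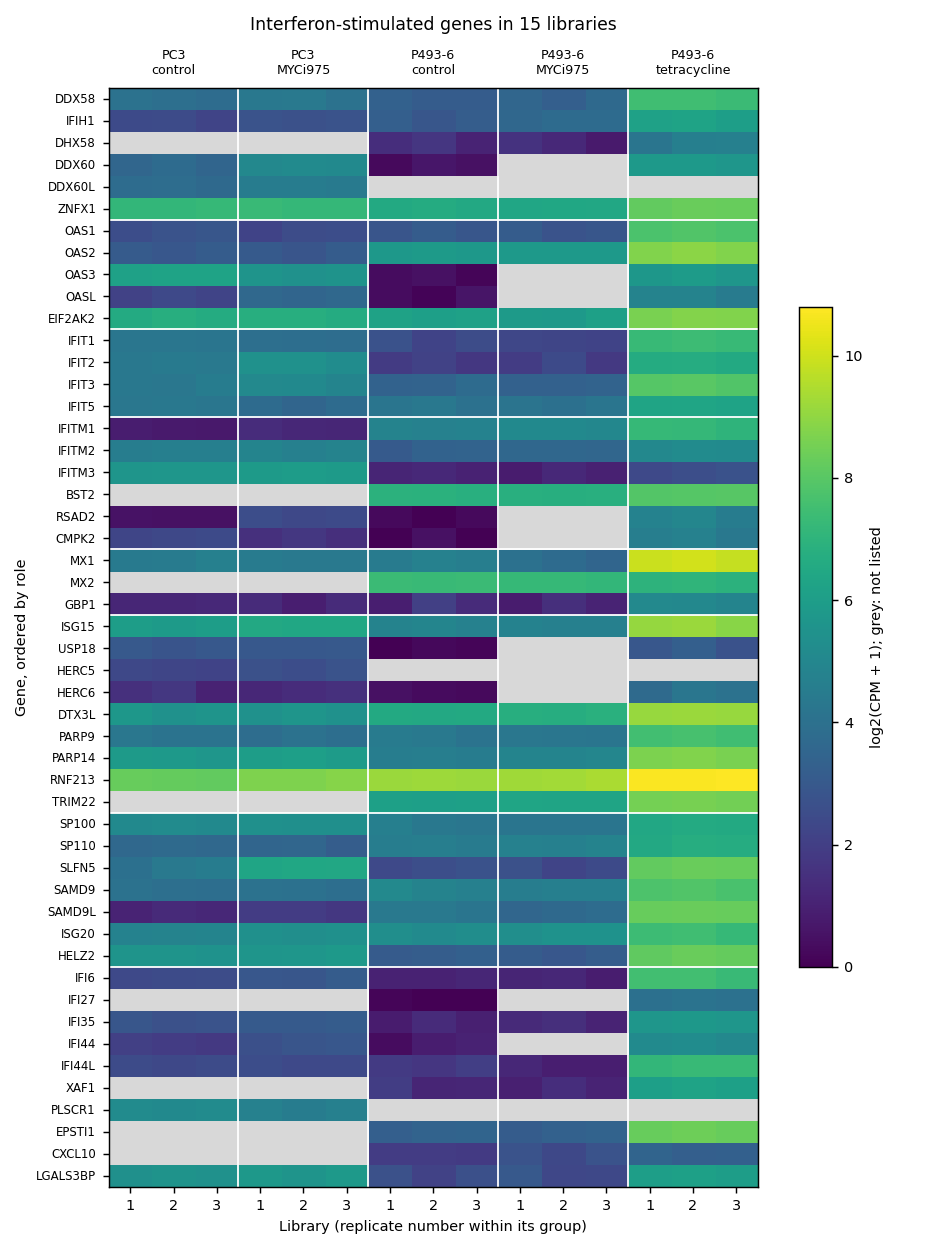
Level of each of the 50 members in every library, as log2(CPM + 1), with 3 libraries per group in columns and genes in rows, grouped by role between white lines; grey cells are genes not listed in that table. The 3 tetracycline libraries hold the highest P493-6 level of every listed member except MX2, and grey cells mark the 8 members not listed in PC3 and the 12 not listed for P493-6 with MYCi975.

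Untreated cells of both lines already expressed many members. Divided by exon length, ISG15, the ubiquitin-like modifier, had the highest level among the listed members in PC3 controls (65.5 CPM per kb of exon), followed by the entry blockers IFITM3 (36.5) and IFITM2 (15.3) and the helicase-like RNA sensor ZNFX1 (15.3). In P493-6 controls BST2, or tetherin, which holds budding virus at the cell surface, had the highest (104 CPM per kb), followed by ISG15 (29), IFITM1 (24.6) and RNF213, a large ubiquitin ligase (20.2). With tetracycline ISG15 reached 557 CPM per kb, BST2 218, IFI6, a protein of the endoplasmic reticulum and mitochondria, 203, IFITM1 130 and MX1, a GTPase that traps viral particles, 113. The lines differed in which members were listed. DHX58, BST2, MX2, TRIM22, IFI27, XAF1, EPSTI1 and CXCL10 are not listed in PC3. DDX60L, HERC5 and PLSCR1 are listed in PC3 only. IFI27 is listed only in the tetracycline table. DDX60, OAS3, OASL, RSAD2, CMPK2, USP18, HERC6 and IFI44 are listed with tetracycline and in PC3 but not in the P493-6 MYCi975 table. The 47 members listed with tetracycline together took 0.156 to 0.161% of the reads of P493-6 controls and 0.991 to 1.06% with tetracycline. The 38 listed for P493-6 with MYCi975 took 0.156 to 0.161% in controls and 0.160 to 0.169% with MYCi975. The 42 listed in PC3 took 0.129 to 0.130% of the reads of controls and 0.160 to 0.162% with MYCi975. These sums cover different genes, so they are not compared between lines.

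Turning MYC off with tetracycline was accompanied by higher levels of almost every listed member in P493-6. Among the 37 members above 1 CPM in at least 2 of the 3 controls, 36 rose and MX2 fell, and their log2 fold changes had a median of 3.11. Of all 13703 genes tested there, 78.1% were called (36.2% higher and 41.9% lower). Among the 12554 genes above the same control level, 32.8% rose, 45.8% fell and the median was −0.14. Calls are at an adjusted p below 0.05 from limma on log2(CPM + 1), and the added 1 CPM pulls fold changes of weakly expressed genes toward 0. Since CPM is relative, a rise is relative to the other RNA of the library, and in bulk RNA fewer cells and less RNA per cell cannot be told apart. With the median of all genes set equal between libraries 6129 of all genes were higher and 4741 lower, in place of 4957 and 5745. The 37 members above the control level kept their calls. Another 10 members were below 1 CPM in at least 2 controls. These were listed with tetracycline because they were high there, so their differences are given as values and not counted.

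IFI6 (ENSG00000126709, chromosome 1, 27666061 to 27672218 on the minus strand of hg38) was at 1.07, 1.06 and 1.23 CPM in controls and at 184, 185 and 158 CPM with tetracycline. Its log2 fold change was 6.38 (SE 0.10, adjusted p = 1.82e-37), the largest among members against control on the scale of log2(CPM + 1), and the MYCi975 libraries of the same line stayed at the control level (1.20, 1.28 and 0.799 CPM). SLFN5, a member of the Schlafen family, which acts on RNA and chromatin (ENSG00000166750, chromosome 17, 35243036 to 35273655, plus strand), was at 4.17, 4.99 and 5.63 CPM in controls and at 291, 322 and 308 CPM with tetracycline (5.70, SE 0.08, adjusted p = 4.26e-39). MX1 (ENSG00000157601, chromosome 21, 41420304 to 41459214, plus strand) went from 21.1, 25.5 and 23.6 CPM to 956, 1054 and 922 CPM (5.32, SE 0.06, adjusted p = 1.01e-35). IFI44L, an interferon-induced protein of the same chromosome 1 region as IFI44, went from 2.52, 2.29 and 2.97 CPM to 140, 154 and 152 CPM (5.38, SE 0.10, adjusted p = 3.87e-36). For each of these 4 genes every tetracycline library lay far above every control library.

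The exception was MX2, a GTPase of the nuclear envelope best known for restricting retroviruses (ENSG00000183486, chromosome 21, 41361943 to 41409390, plus strand). MX2 was at 164, 159 and 161 CPM in controls, 147, 151 and 142 CPM with MYCi975 and 125, 133 and 121 CPM with tetracycline. The 3 groups did not overlap, and MX2 fell with tetracycline by 0.35 on the log2 scale (SE 0.05, adjusted p = 3.74e-08). Over all alternative settings its log2 fold change with tetracycline lay between −0.38 and −0.16. MX1 and MX2 are neighbours on chromosome 21 and lie on the same strand, so within this locus 1 gene rose with tetracycline and the other fell.

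**Figure D2:**
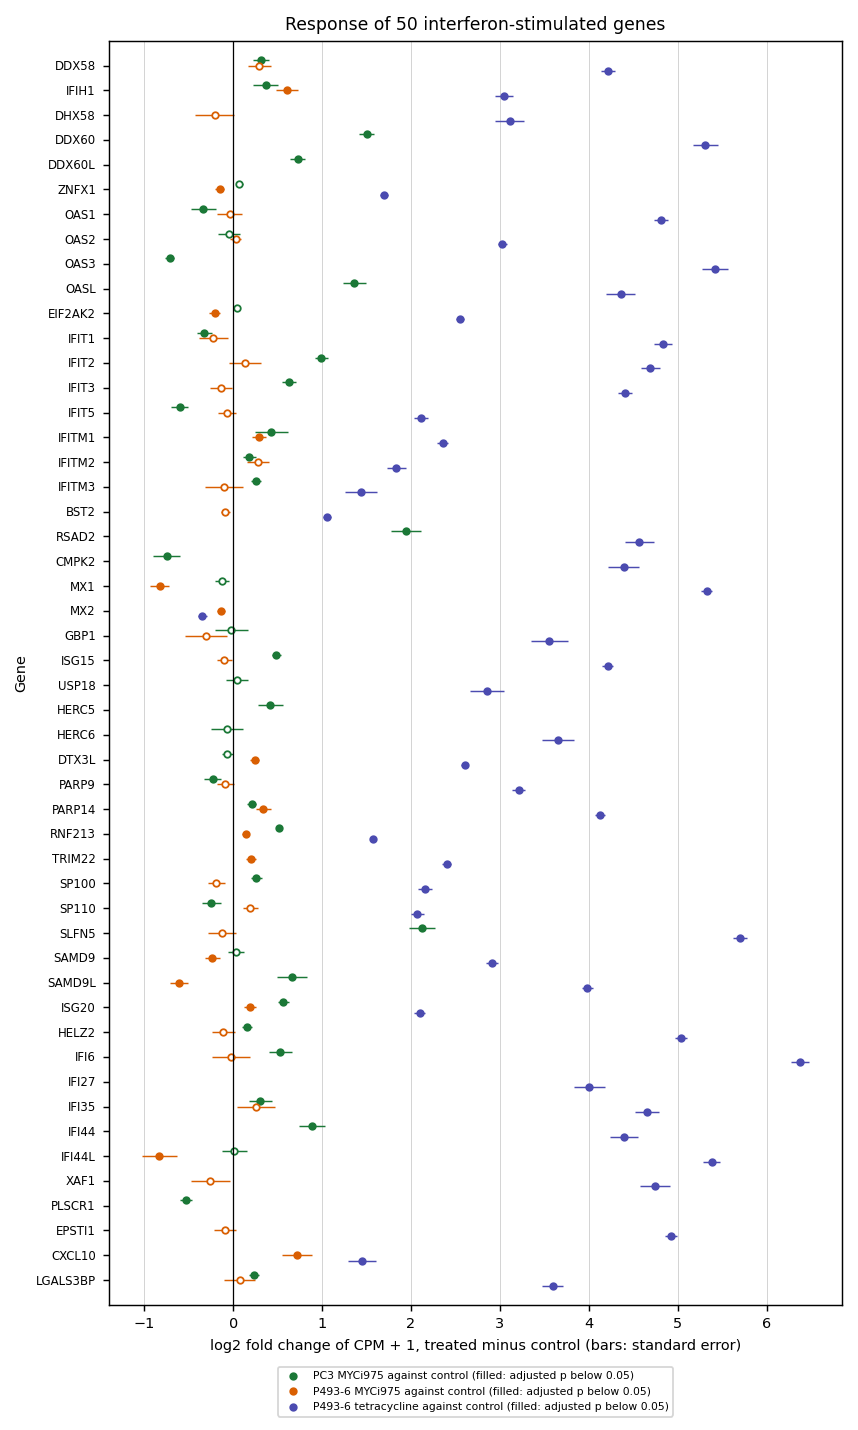
log2 fold change of CPM + 1 with its standard error for each member, treated minus control, in PC3 with MYCi975 (green), P493-6 with MYCi975 (orange) and P493-6 with tetracycline (blue); filled points passed an adjusted p of 0.05. Blue points lie between 1.06 and 6.38 apart from MX2 at −0.35, while green and orange points lie between −0.83 and 2.12.

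Of the 6 RNA sensors 5 are listed with tetracycline and DDX60L is not; the 5 are given here, DDX60 as values since its controls were below 1 CPM. DDX58, the RIG-I sensor of viral RNA ends, rose from 8.28 ± 0.717 to 171 ± 9.10 CPM (SD, n = 3), a log2 fold change of 4.22. IFIH1, or MDA5, the sensor of long double-stranded RNA, rose from 7.73 ± 1.19 to 70.9 ± 5.30 CPM (3.05). DHX58, or LGP2, their regulator, was at 1.65, 2.29 and 1.13 CPM in controls but at 17.4, 24.1 and 24.8 CPM with tetracycline (3.11). ZNFX1 was already at 94.0 ± 4.44 CPM in controls and rose to 307 ± 11.7 CPM (1.70). DDX60, a helicase linked to RIG-I signalling, was at 0.194, 0.573 and 0.409 CPM in controls but at 56.7, 55.4 and 49.7 CPM with tetracycline (5.31).

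The enzymes that answer double-stranded RNA were higher too. OAS1 and OAS2, which make the 2-5A signal that activates RNase L, rose from 6.80 ± 0.930 to 217 ± 12.9 CPM (4.81) and from 54.0 ± 2.77 to 447 ± 25.3 CPM (3.03). OAS3, the largest enzyme of that family, was nearly absent from controls, at 0.291, 0.409 and 0.102 CPM, and stood at 51.4, 59.2 and 49.1 CPM with tetracycline (5.42). OASL, a family member without that enzyme activity, was at 0.291, 0.0819 and 0.512 CPM in controls but at 27.7, 27.7 and 21.1 CPM with tetracycline (4.36). EIF2AK2, or PKR, which stops translation, rose from 70.4 ± 2.68 to 418 ± 25.1 CPM (2.55). The IFIT proteins, which bind foreign RNA ends, rose in 4 of 4: IFIT1 by 4.83, IFIT2 by 4.69, IFIT3 by 4.41 and IFIT5 by 2.12 on the log2 scale. IFIT5 had the smallest fold and the highest control level of the 4 in CPM (17.3 ± 1.81 CPM).

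BST2 rose from 117 ± 5.18 to 244 ± 6.18 CPM (1.06), the smallest rise of any member. IFITM1, IFITM2 and IFITM3 rose by 2.36, 1.84 and 1.44, and their values are uncertain because the genes are near-identical copies and IFITM1 lies inside the interval that the tables give for IFITM2. RSAD2, or viperin, an enzyme that makes a chain-terminating nucleotide, was at 0.194, 0 and 0.205 CPM in controls and at 26.2, 29.8 and 22 CPM with tetracycline. CMPK2, a mitochondrial nucleotide kinase that overlaps it on the other strand, was at 0, 0.409 and 0 CPM in controls and at 23.6, 25.7 and 18.9 CPM. GBP1, a GTPase that attacks the membranes of pathogens, went from 0.872, 3.11 and 1.53 CPM to 32.5, 31.7 and 28.1 CPM (3.56).

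ISG15 rose from 27.3 ± 1.93 to 524 ± 48.9 CPM (4.21). USP18, which removes ISG15 from proteins and restrains the interferon receptor, was counted with 3 reads in the 3 controls together and 184 reads with tetracycline. It is listed because it was high there. HERC6, a HERC family ubiquitin ligase, was at 0.388, 0.246 and 0.205 CPM in controls but at 12.2, 17.9 and 15.7 CPM with tetracycline. DTX3L and PARP9, which form an ADP-ribosylating ubiquitin ligase, rose by 2.61 and 3.21, PARP14, a further ADP-ribosyltransferase, by 4.12, RNF213 by 1.57 and the ubiquitin ligase TRIM22 by 2.40. RNF213 had the highest CPM of all members in each of the 5 groups (1715 ± 44.9 CPM with tetracycline), although it also has the longest exon sequence of them.

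All 7 nuclear, nuclease and translation-directed members rose. HELZ2, a nuclear helicase, went from 7.66, 7.94 and 8.90 CPM to 280, 316 and 301 CPM (5.03). SAMD9L and SAMD9, neighbouring genes whose products stop translation, rose by 3.99 and 2.91. ISG20, an exonuclease, rose by 2.10, and the nuclear body proteins SP100 and SP110 by 2.16 and 2.07. Among the remaining members EPSTI1 rose by 4.92 and XAF1, a pro-apoptotic factor, by 4.75. LGALS3BP, a secreted glycoprotein, rose by 3.59 and the chemokine CXCL10, which attracts T cells, by 1.45. IFI35 was at 0.775, 1.47 and 0.921 CPM in controls but at 49.4, 52.6 and 49.3 CPM with tetracycline, and IFI44 at 0.291, 0.819 and 1.02 CPM and then 34.3, 36.9 and 32.2 CPM. IFI27, a mitochondrial protein, had 1 read in the 3 controls together and 416 reads with tetracycline, and is listed because it was high there.

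**Figure D3:**
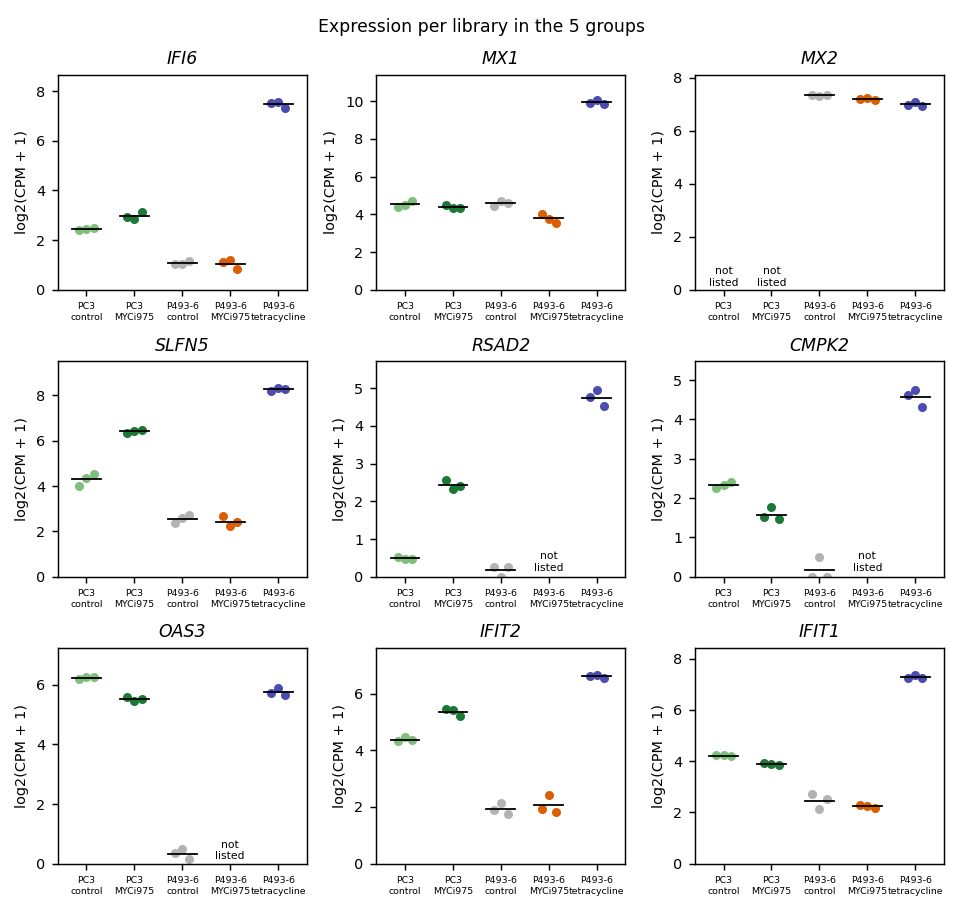
log2(CPM + 1) in each library (points) with the group mean (bar) for 9 members in the 5 groups; each panel has its own axis starting at 0. IFI6, MX1 and SLFN5 are far above all other groups with tetracycline, and MX2 is lowest there. RSAD2 and CMPK2 move in opposite directions in PC3. Both are higher with tetracycline, but they were below 1 CPM in its controls and are listed there because they were high.

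Markers of other cell types moved with tetracycline too. The summed level of the 4 monocyte and macrophage markers was 4.56 to 5.42 CPM in controls and 56.1 to 64.7 CPM with tetracycline, from LYZ and CD68, with CD14 and CSF1R not listed. The 5 B cell markers named above summed to 1510 to 1558 CPM in controls, 1647 to 1702 CPM with MYCi975 and 4301 to 4316 CPM with tetracycline. The 4 T cell markers, of which CD3D and CD247 were not listed, summed to 3.93 to 5.72 CPM and then 9.41 to 12.1 CPM. CD68 and CD2 were below 1 CPM in every control, so they are listed because they were high with tetracycline. The 4 fibroblast markers, of which COL1A2, COL3A1 and DCN were not listed, went from 1.13 to 2.52 CPM up to 6.98 to 8.69 CPM. The 6 epithelial markers, of which EPCAM and KRT19 were listed, went from 11.1 to 12.4 CPM down to 1.82 to 2.75 CPM. These values come from RNA of 1 established line and do not measure the presence of other cell types. Any link of these markers to the rise of the members was not tested.

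MYCi975 in the same P493-6 cells gave no common direction. Of the 38 listed members 8 rose, 7 fell and 23 did not pass, with a median of −0.09, where 10.6% of all 12998 genes were called higher and 18% lower and the median of all genes was −0.04. The members' shares were 21.1% and 18.4%. With TMM scaling 1819 of all genes were higher and 1690 lower, in place of 1375 and 2338. The changes were small, between −0.83 and 0.72 on the log2 scale. In simulated counts of this comparison 30% of changes of 0.25 and 74% of changes of 0.5 on the log2 scale were found. Far fewer genes were changed in the simulation than the 3713 called here, so its adjusted p was stricter than in the data. Members that did not pass may still have changed by such amounts.

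CXCL10 rose most with MYCi975 in P493-6, from 2.81, 2.78 and 2.56 CPM to 5.73, 4.05 and 5.69 CPM (0.72, SE 0.17, adjusted p = 7.84e-04). IFIH1 rose from 8.63, 6.39 and 8.18 CPM to 11.2, 12.8 and 12.6 CPM (0.60, SE 0.12, adjusted p = 1.77e-04). In both genes the groups did not overlap. PARP14 rose by 0.34, IFITM1 by 0.29, DTX3L by 0.24, TRIM22 by 0.20, ISG20 by 0.19 and RNF213 by 0.14.

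MX1 went the other way. It was at 21.1, 25.5 and 23.6 CPM in P493-6 controls and at 15.5, 12.6 and 10.6 CPM with MYCi975, without overlap (−0.83, SE 0.11, adjusted p = 6.87e-08). SAMD9L fell from 19.3, 19.7 and 17.3 CPM to 10.8, 12 and 13.1 CPM (−0.61, SE 0.10, adjusted p = 1.03e-05). IFI44L, named here after its values were seen, fell from 2.52, 2.29 and 2.97 CPM to 1.28, 0.888 and 0.899 CPM (−0.83, SE 0.20, adjusted p = 9.85e-04). SAMD9 (−0.23), EIF2AK2 (−0.21), ZNFX1 (−0.15) and MX2 (−0.14) also passed as falls, but these 4 calls were lost with edgeR and with DESeq2 on the recovered reads. Without MYCi975 replicate 1 the number of falls was 3 and without MYCi975 replicate 2 it was 4. With TMM scaling 11 members rose and 4 fell, the falls being MX1, SAMD9L, IFI44L and EIF2AK2. The IFIT genes did not pass in P493-6 with MYCi975 (log2 fold changes from −0.22 to 0.13), nor did ISG15 (−0.10), OAS1 (−0.04) or OAS2 (0.03).

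MYCi975 and tetracycline were compared directly in P493-6, over 38 members listed in both tables. With MYCi975 37 were lower than with tetracycline and MX2 was higher, with a median log2 difference of −3.31, where 76.2% of all 12860 genes were called (33.9% lower and 42.3% higher) and the median was 0.08. IFI6 differed by −6.40 (SE 0.13, adjusted p = 1.26e-39), IFI44L by −6.21, MX1 by −6.15 and SLFN5 by −5.83. CXCL10 had the smallest difference of the 37 (−0.73, SE 0.16, adjusted p = 4.51e-05). MX2 was higher with MYCi975 by 0.21, a call that was lost with library medians set equal and with DESeq2. With the median of all genes set equal, 4368 of all genes were higher and 5541 lower, in place of 5438 and 4356, and the 37 members stayed lower. Both treatments are set against the same 3 controls, so their fold changes are given side by side here and not correlated.

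PC3 cells given MYCi975 had a mixed response that leaned upward. Of 40 members above 1 CPM in at least 2 controls, 22 rose, 8 fell and 10 did not pass, with a median of 0.19. Of all 13751 genes in PC3, 29% were called higher and 30.1% lower. Among the 13231 genes above that control level the shares were 28.6% and 31.3% and the median was −0.01. RSAD2 and IFITM1 were below 1 CPM in the controls and are given as values. The 8 members that fell were a share of 20%. With MYCi975 the summed epithelial markers went from 1408 to 1444 CPM down to 1143 to 1231 CPM, the fibroblast markers, of which COL1A2 and DCN were not listed, from 65.7 to 67.8 CPM down to 56.8 to 58.9 CPM, and CD68, the only listed monocyte marker, from 0.531 to 0.974 CPM up to 2.05 to 2.69 CPM. CD68 was below 1 CPM in every PC3 control, so it is listed because it was high with MYCi975. Any link of these markers to the members' changes was not tested.

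SLFN5 had the largest rise in PC3, from 14.9, 19.4 and 22.2 CPM to 79.4, 85.8 and 87.5 CPM (2.12, SE 0.15, adjusted p = 5.06e-05). DDX60 rose from 10.7, 12.5 and 10.5 CPM to 32.1, 34.5 and 34.2 CPM (1.5, SE 0.08, adjusted p = 1.48e-30), and its neighbour and relative DDX60L from 12.8 ± 0.894 to 21.8 ± 0.992 CPM (0.73). OASL rose from 3.39, 4.22 and 3.57 CPM to 11.6, 10.4 and 11.4 CPM (1.36, SE 0.13, adjusted p = 4.30e-17). RSAD2 was at 0.440, 0.389 and 0.380 CPM in PC3 controls and at 4.86, 4.04 and 4.31 CPM with MYCi975 (1.94). IFITM1 was at 0.816, 0.714 and 0.683 CPM and then at 1.55, 1.28 and 1.20 CPM. In each of these genes every MYCi975 library lay above every control.

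Further rises in PC3 were IFI44 (0.89, from 2.76 ± 0.357 to 5.97 ± 0.658 CPM), SAMD9L (0.66), ISG20 (0.56), IFI6 (0.53), RNF213 (0.51) and ISG15 (0.49, from 61.6 ± 2.79 to 86.7 ± 3.81 CPM). HERC5, the ligase that attaches ISG15 to proteins, rose by 0.42, IFIH1 by 0.36, DDX58 by 0.31 and IFI35 by 0.31. IFITM3, SP100, LGALS3BP, PARP14, IFITM2 and HELZ2 rose by 0.26, 0.26, 0.24, 0.21, 0.18 and 0.16. MX1 (−0.13), GBP1 (−0.02), OAS2 (−0.05), EIF2AK2 (0.04), USP18 (0.04) and IFI44L (0.01) did not pass in PC3, nor did ZNFX1 (0.07), HERC6 (−0.07), DTX3L (−0.07) or SAMD9 (0.03).

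The members that fell in PC3 had mean control levels between 4.04 CPM (CMPK2) and 74.5 CPM (OAS3). OAS3 fell from 72.1, 76.0 and 75.4 CPM to 47.2, 42.6 and 45.4 CPM (−0.71, SE 0.05, adjusted p = 4.26e-22), and the groups did not overlap. PLSCR1, a phospholipid scramblase that blocks virus entry, fell from 35.9, 34.1 and 36.1 CPM to 25.3, 22.4 and 25 CPM (−0.53, SE 0.07, adjusted p = 1.35e-10). IFIT5 fell from 18.6, 19.1 and 18.0 CPM to 12.7, 10.3 and 12.7 CPM (−0.60, SE 0.09, adjusted p = 1.92e-08). CMPK2 fell from 3.77, 4.02 and 4.33 CPM to 1.84, 2.41 and 1.77 CPM (−0.75, SE 0.16, adjusted p = 2.05e-05). IFIT1 (−0.32), OAS1 (−0.34), SP110 (−0.25) and PARP9 (−0.23) also fell. The calls on OAS1, SP110 and PARP9 were lost with DESeq2 and at an adjusted p of 0.01.

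Some neighbouring members went opposite ways in PC3 with MYCi975 and the same way in P493-6 with tetracycline. There are 11 groups of members with gaps of at most 200000 bases between neighbours, holding 27 members. On chromosome 10, IFIT2 (89301955 to 89309276) and IFIT3 (89327894 to 89340971) rose in PC3 by 0.99 and 0.62, while IFIT1 (89392546 to 89406486) and IFIT5 (89414586 to 89421001), on the same strand, fell. IFIT2 went from 18.8, 21.0 and 19.4 CPM to 42.4, 42.3 and 36.4 CPM and IFIT1 from 17.7, 17.7 and 17.5 CPM to 14.4, 13.9 and 13.4 CPM. With tetracycline these 2 genes rose by nearly the same amount (4.69 and 4.83).

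On chromosome 2, RSAD2 (6865806 to 6898239, plus strand) and CMPK2 (6840570 to 6866635, minus strand) overlap head to head. In PC3 with MYCi975 RSAD2 was higher by 1.94 and CMPK2 fell by 0.75. RSAD2 was below 1 CPM in the PC3 controls. With tetracycline the genes were higher by 4.57 and 4.39. Both were below 1 CPM in the controls of that comparison and are listed there because they were high with tetracycline. Their shared direction there followed from the listing and is not read as a result. The libraries kept strand, but whether the counting used it is not given in the sources used here, so reads in the shared stretch cannot be assigned with certainty. On chromosome 12, OAS1 and OAS3 fell in PC3 and OAS2, which lies beside them, did not pass, while OASL, further along the same chromosome, rose. SP110 fell and SP100 rose in PC3 by 0.25 and 0.26, and both rose with tetracycline. DDX60 and DDX60L rose together in PC3. On chromosome 1, IFI44 rose in PC3 by 0.89 and IFI44L did not pass (0.01).

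With MYCi975 members with the ISRE core and members without it both rose and fell. In PC3 14 of 25 members with it rose and 5 fell, against 6 of 10 without it that rose and 3 that fell. Of all genes there, 29% were higher and 30.1% lower. The 14 include RSAD2 and IFITM1, which were below 1 CPM in PC3 controls. In P493-6 with MYCi975 6 of 21 with the core rose and 4 fell, against 1 and 1 of 9 without it. Of all genes there, 10.6% were higher and 18% lower. Few members lack the core and some have no window, so a link of the core to direction was not tested. With tetracycline the listed members with a window were higher whether the core was there (26 of 26) or not (11 of 11), a count that includes members listed because they were high there. MX2, the only member that fell with tetracycline, has no window, so this count could not show a division. OAS3 and IFIT1, shown above, fell in PC3, and DDX60, IFIT3 and IFI6 rose.

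The response to MYCi975 differed between the lines for 15 of 31 members listed in both, at doses that also differed. The difference was taken as an interaction over 12 libraries. It was higher in PC3 for 12 and lower for 3, with a median of 0.25, where 18.1% of 11240 genes were higher, 18.2% lower and the median was 0.01. SLFN5 differed most (2.25, SE 0.18, adjusted p = 8.21e-12), rising in PC3 and standing at 4.17, 4.99 and 5.63 CPM in P493-6 controls against 5.39, 3.65 and 4.29 CPM with MYCi975. SAMD9L rose in PC3, from 1.13, 1.43 and 1.29 CPM to 2.73, 2.76 and 2.33 CPM, and fell in P493-6, a difference of 1.27 (SE 0.19, adjusted p = 8.06e-07). The difference was also positive for IFIT2 (0.86), IFI44L (0.84), IFIT3 (0.76), MX1 (0.70) and ISG15 (0.59). Of these, MX1 (−0.13) and IFI44L (0.01) did not pass in PC3 and fell in P493-6 (−0.83 each). It was negative for IFIT5 (−0.53), SP110 (−0.44) and DTX3L (−0.31). IFIH1, IFITM1, PARP14, RNF213 and ISG20 were called higher in all 3 comparisons with control, of which those of P493-6 share their controls. Of these 5 genes PARP14 kept its calls in every alternative run. The PC3 calls of IFIH1 and IFITM1 and the P493-6 MYCi975 calls of RNF213 and ISG20 were lost in some, and IFITM1 was below 1 CPM in PC3 controls.

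**Figure D4:**
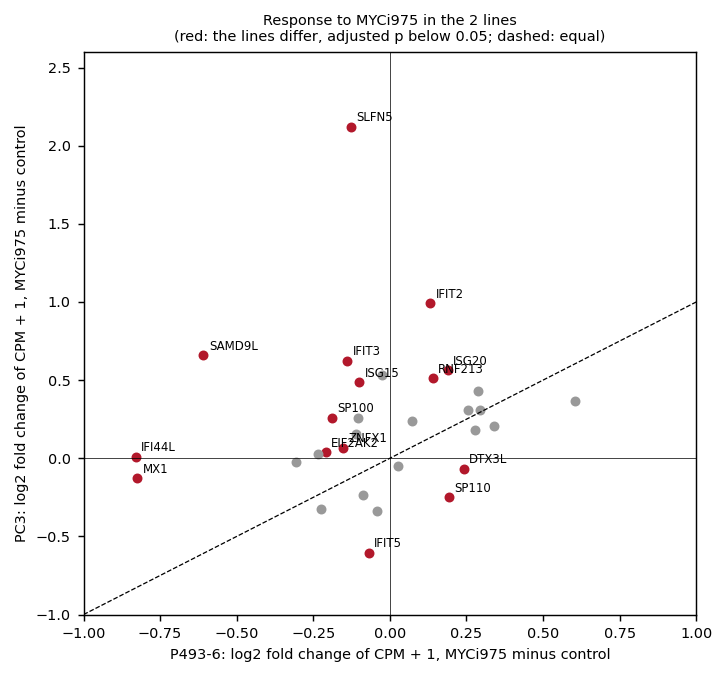
log2 fold change of CPM + 1 with MYCi975 in PC3 (vertical axis) against P493-6 (horizontal axis) for the 31 members listed in both lines; red points are the 15 whose response differed between lines at an adjusted p of 0.05, and the dashed line marks equal responses. SLFN5 stands highest, at 2.12 in PC3 and −0.13 in P493-6.

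Other genes of the interferon pathway were taken from lists outside the members. None of the 10 interferon genes on the list (alpha, beta, gamma, lambda and others) is listed in any table. Of 66 further pathway genes listed with tetracycline, 52 rose, 7 fell and 7 did not pass, with a median of 1.06. This count includes genes, such as SOCS3, that were below 1 CPM in controls. With MYCi975 7 of 64 rose and 8 fell in P493-6 (median −0.04), shares of 10.9% and 12.5% beside 10.6% and 18% of all genes. In PC3 14 of 53 rose and 11 fell (median 0.06), shares of 26.4% and 20.8% beside 29% and 30.1% of all genes. With tetracycline the shares were 78.8% and 10.6% beside 36.2% and 41.9%.

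The receptor subunits rose with tetracycline in 5 of 6, where 36.2% of all genes rose. IL10RB, shared by the lambda interferon receptor, rose most, from 8.24, 7.29 and 7.67 CPM to 27.0, 28.3 and 25 CPM (1.67). IFNGR1, IFNLR1 and IFNAR2 rose by 0.98, 0.83 and 0.81, and IFNGR2 did not pass (−0.01). Of the kinases and transcription factors 11 of 12 rose. IRF7, the factor that amplifies interferon production, went from 6.59, 7.94 and 6.65 CPM to 147, 151 and 139 CPM (4.19). STAT2 rose by 3.0, from 22.3, 21.6 and 20.4 CPM to 169, 191 and 176 CPM, and IRF9 by 2.72. IRF3, which is held in cells ready for activation, did not pass (−0.09).

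Among the sensors and adaptors with tetracycline, ZBP1, a sensor of left-handed nucleic acids, rose from 4.65, 6.22 and 3.38 CPM to 131, 139 and 129 CPM (4.57), and TLR7, MYD88 and TRIM25 rose by 1.72, 1.37 and 1.20. In all, 10 of 15 rose and 1 fell, where 36.2% of all genes rose and 41.9% fell. All 19 further restriction and ISG15-conjugating genes rose, with UBA7, the activating enzyme of ISG15, at 3.31, TRIM21 at 2.29, TRIM5 at 2.22 and APOBEC3F at 1.98. Of the 14 negative regulators 7 rose and 6 fell, shares of 50% and 42.9%. SOCS1, which blocks the receptor kinases, rose by 2.92 and PTPN6 by 2.21, and IRF2BP1 fell by 1.06 on the log2 scale. SOCS3 was higher by 1.90 and is among the 7, but it was below 1 CPM in controls and is listed because it was high. The counts of these lists were not restricted to genes above 1 CPM in controls.

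**Figure D5:**
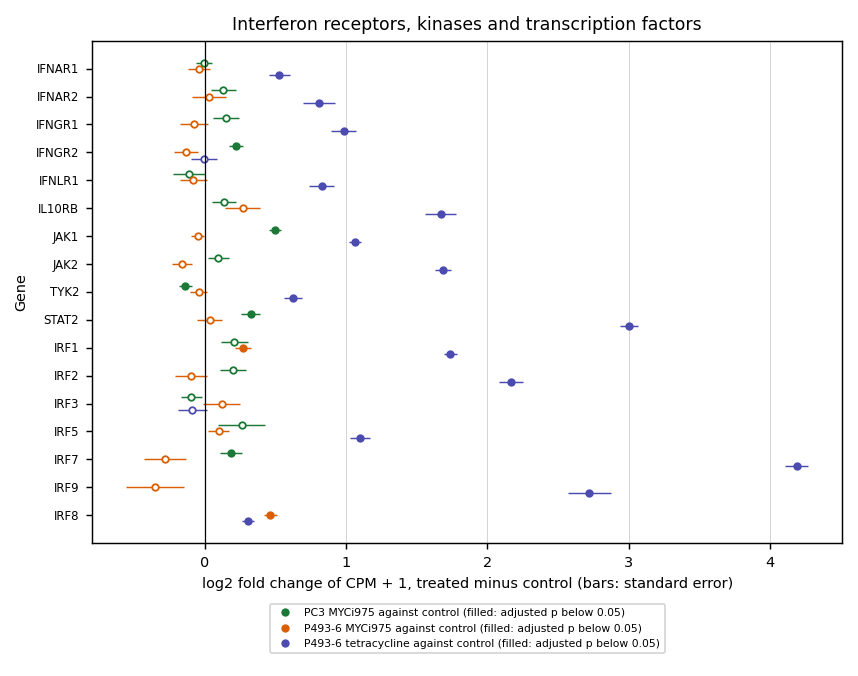
log2 fold change of CPM + 1 with its standard error for 6 receptor subunits and 11 kinases and transcription factors, in the colours of the member plot; filled points passed an adjusted p of 0.05. With tetracycline STAT2, IRF7 and IRF9 lie between 2.72 and 4.19, while all points of MYCi975 lie between −0.36 and 0.49.

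With MYCi975 in P493-6 IRF8, a factor of B cell and myeloid development, rose from 158, 157 and 151 CPM to 215, 204 and 226 CPM (0.46) and IRF1 by 0.27, while STAT2 (0.03), IRF7 (−0.29) and IRF9 (−0.36) did not pass. UBE2L6, the conjugating enzyme of ISG15, rose by 0.51 and the peptide transporter TAP1 by 0.39. TREX1 (−0.66), RNF125 (−0.43) and TMEM173, the older symbol of STING (−0.41), fell. In PC3 JAK1 rose by 0.49, STAT2 by 0.32, IFNGR2 by 0.22 and IRF7 by 0.18, and TYK2 fell by 0.14. IFI16, a DNA sensor, went from 8.29, 9.09 and 9.03 CPM to 15.9, 18.1 and 16.8 CPM in PC3 (0.87), while MB21D1, the older symbol of the DNA sensor cGAS, fell from 21.1, 22.7 and 22 CPM to 13.0, 13.9 and 13.6 CPM (−0.66).

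The sign of the members' log2 fold changes was that of the authors' deposited table for 47 of 47 with tetracycline, 42 of 42 in PC3 and 36 of 38 for MYCi975 in P493-6. By the adjusted p of the authors' deposited table, at a threshold of 0.01, 46 members were higher with tetracycline and 1 was lower. The counts with tetracycline include the 10 members below 1 CPM in at least 2 controls, which were listed because they were high there. In PC3 the same threshold in the authors' deposited table gave 20 higher and 5 lower. For MYCi975 in P493-6 the authors' deposited table gave 8 higher and 3 lower. The share of all genes passing in the authors' tests was not counted, so these counts are not read as a result about the members. In the limma fits at 0.01, 3309 of 13751 genes in PC3 were higher and 3518 lower. With tetracycline 4471 of 13703 were higher and 5287 lower, and with MYCi975 in P493-6 908 of 12998 and 1552.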

How the data were processed

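RNA from 15 libraries of 5 groups of 3 was sequenced with a strand-specific RNA capture kit. Per the submitters' processing notes the authors aligned reads to hg38 with STAR, counted them with HTSeq and used edgeR, with no versions, annotation or strand setting given. The deposited tables hold CPM per gene and library, and from the values every CPM was a whole multiple of 1 read (tolerance 0.001), so reads were recovered. The authors also deposited log2 fold changes with adjusted p-values of their own tests, which were set beside the calls made here and used for nothing else.

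Here log2(CPM + 1) was fitted over all genes of a table with limma 3.58.1 (R 4.3.3) and Benjamini-Hochberg adjustment, calls being at an adjusted p below 0.05. The direct comparison was a contrast of the 6 treated P493-6 libraries in a fit of all 9 P493-6 libraries, controls included. The interaction used all 12 libraries with MYCi975 or their controls. Alternatives were pseudocounts of 0.5 and 2 CPM, a mean CPM of at least 5, TMM factors, equal medians, edgeR 4.0.16 and DESeq2 1.42.0 on the recovered reads, a replicate block, a threshold of 0.01, all 9 P493-6 libraries, and leaving out each library. The fits were tested on simulated data. Exon lengths are merged exons of GENCODE 29, since the width column of the tables was about 2.04 times that length. Values per library are given for the 6 largest called rises and falls of each comparison among members averaging at least 2 CPM, and for up to 4 genes per pathway list by size of change; values of other members were added after they were seen. Some listed genes are not reported here. The members and lists were chosen with earlier results of these data known.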

Additional observations from a re-analysis of the deposited data

Results flagged for a closer look

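The response to MYCi975 differed between the lines, by limma's interaction term at an adjusted p below 0.05, for 15 of 31 members (48.4%) listed in both lines. It differed for 23 of 52 other pathway genes (44.2%), beside 36.3% of all 11240 genes. The 16 pathway genes below are those the naming rule picked. The values are log2 differences, PC3 minus P493-6, at 8 µM in PC3 and 6 µM in P493-6, so line and dose cannot be told apart. Among RNA sensors and double-stranded RNA effectors the difference was 0.22 for ZNFX1 and 0.25 for EIF2AK2. In the IFIT family it was 0.86 for IFIT2 and 0.76 for IFIT3 but −0.53 for IFIT5. MX1 differed by 0.70, ISG15 by 0.59, RNF213 by 0.37 and DTX3L by −0.31. Among nuclear and translation-directed members SLFN5 differed by 2.25, SAMD9L by 1.27, SP100 by 0.45, ISG20 by 0.37 and SP110 by −0.44. IFI44L differed by 0.84.

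Of the receptors, kinases and factors, JAK1 differed by 0.55, IRF7 by 0.47, IFNGR2 by 0.35 and STAT2 by 0.29. Of the sensors and adaptors, IFI16 differed by 0.91, TMEM173 by 0.76 and RNF135 by 0.60, and MB21D1 by −0.58 and MYD88 by −0.32. Of the negative regulators, SOCS1 differed by −0.69, IRF2BP1 by −0.38 and ADAR by −0.14, and RNF125 by 0.48. NMI differed by 0.55, SAMHD1 by 0.24 and APOBEC3C by −0.26.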

How the results depend on the processing

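No called member changed direction in any alternative run. Genes that did not pass are not covered by that statement. Medians of all genes in each comparison except P493-6 with MYCi975, and of pathway genes there, changed sign in some runs. The members called lower in PC3 went from 8 to 5 with DESeq2 and to 5 at an adjusted p below 0.01. In P493-6 with MYCi975 the members called lower went from 7 to 4 with TMM factors, 4 with medians set equal, and 3 with edgeR, with DESeq2 and at an adjusted p below 0.01, and lay between 3 and 6 when 1 library was left out. Pathway genes called lower there went from 8 to 5 with edgeR, 3 with DESeq2 and 5 at the stricter threshold, and between 5 and 9 with 1 library left out. With tetracycline pathway genes called lower went from 7 to 4 with medians set equal, which moved the median of all genes from −0.05 to 0.14. Setting medians equal also moved the median of all genes between MYCi975 and tetracycline from 0.08 to −0.11, and TMM factors moved that of pathway genes with MYCi975 in P493-6 from −0.04 to 0.01. Between MYCi975 and tetracycline the members called higher went from 1 to 0 with medians set equal and with DESeq2, and the pathway genes from 7 to 4 with TMM factors, medians set equal, edgeR and DESeq2. In the comparison of lines, pathway genes called higher went from 15 to 9 at the stricter threshold and between 9 and 13 with 1 library left out (9 without P493-6 control replicate 2), and those called lower from 8 to 4 at the stricter threshold. The split of that comparison was 10 higher and 9 lower with TMM factors. The cause was not tested.

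In every alternative run that tested them, 24 of 32 member calls in PC3 were kept, 9 of 15 in P493-6 with MYCi975, 47 of 47 with tetracycline, 37 of 38 between MYCi975 and tetracycline and 13 of 15 between lines. The 47 include 10 members below 1 CPM in at least 2 controls, which were listed because they were high with tetracycline. The 32 in PC3 include RSAD2 and IFITM1, which were below 1 CPM in PC3 controls. Replicate numbers did not pair the samples (correlations of same-numbered libraries from −0.0711 to 0.013). With the replicate block 7 members were higher and 5 lower with MYCi975 in P493-6, in place of 8 and 7, and pathway genes in the comparison of lines were 12 higher and 7 lower, with no member call lost in the other comparisons. In simulated counts over all genes 44% of log2 changes of 0.25 were found in PC3, and 30% in each P493-6 comparison. Far fewer genes were changed in these simulations than were called in the data, so the adjusted p was stricter there.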
